A study of Mus musculus with 20 samples.

Results

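The 9 genes described here encode core parts of the DNA replication machinery: Mcm2, Mcm3, Mcm4, Mcm5, Mcm6 and Mcm7, Pcna, and Rrm1 and Rrm2. They were chosen by name, and all of their introns listed in the deposited tables were taken. This gave 121 of 68794 introns in the splicing table and 56 of 6537 in the table of splicing intermediates. The cells were wild type murine erythroleukemia (MEL) cells, a mouse line arrested at an early red cell stage that matures when exposed to dimethyl sulfoxide (DMSO). One group was uninduced, and the other was kept in 2% DMSO for 5 days. RNA bound to chromatin, depleted of polyadenylated and ribosomal RNA, was sequenced as PacBio long reads, with 4 samples in each group (2 biological replicates on 2 instruments). The tables give 1 pooled line per intron and condition, so no value has a replicate spread. Tests between the groups compare 2 pools of libraries and not 2 conditions. Tests of an intron against its own gene stay within 1 pool.

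The MCM proteins form a hexameric ring, with 1 copy of each of Mcm2 to Mcm7, that is loaded on DNA before S phase and becomes the motor of the replicative helicase. PCNA is the sliding clamp that holds DNA polymerases on the template. Ribonucleotide reductase makes deoxyribonucleotides from ribonucleotides, with Rrm1 as its large and Rrm2 as its small subunit. These genes are expressed in proliferating cells, and red cell precursors leave the cell cycle as they mature.

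Splicing of nascent RNA was read as coSE, the fraction of reads at an intron that were spliced. Values are given for introns with at least 10 reads, with 95% Wilson intervals that cover counting error only. Of the 121 introns, all had a read before induction and 89 had one after it. The minimum was reached by 52 introns before and 37 after induction, and by 28 in both pools. Mcm2, Mcm4 and Mcm6 had no intron at that depth in either pool. The pools held 416379 and 279371 intron observations, of which 86.1% were spliced in each. Of 13 erythroid marker genes, all 13 were in the table, and their summed mean reads per intron went from 361.8 to 2763.65 with induction. Of 16 genes of other lineages 2 were listed, the megakaryocyte genes Pf4 (40 and 5 reads per intron) and Itga2b (13 and 101), while the other 14 are not listed. The part of this shift in any value below was not tested.

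Mcm7 is described first, since both introns that passed against their own gene by the main test lie in it. Its intron 13, at chr5:138165162-138165909 on the minus strand of GRCm38, between coding exons, holds the hairpins of 3 microRNAs, short RNAs that pair with target messages through a seed at bases 2 to 8. The mature sequences below are from RefSeq on GRCm38.p6, with the seed in capitals, and show that a pair of them share a seed.
mmu-miR-106b-5p: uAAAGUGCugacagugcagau
mmu-miR-93-5p: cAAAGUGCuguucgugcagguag
mmu-miR-25-3p: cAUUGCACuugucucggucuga

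The 5′ splice sites (9 bases) and 3′ splice sites (23 bases) of the Mcm7 introns that the results turn on are shown next, with the first and last bases of the intron in capitals. Introns 1 and 12 passed a test below, and intron 13 is the microRNA host. Intron 14 had the highest intermediate fraction among the member introns listed for intermediates.
Mcm7 intron 1, 5′ site: aagGTgaag
Mcm7 intron 1, 3′ site: tttttattttatatttgtAGaaa
Mcm7 intron 12, 5′ site: gagGTagga
Mcm7 intron 12, 3′ site: atgaaccttgtttcccacAGacg
Mcm7 intron 13, 5′ site: ctgGTgagt
Mcm7 intron 13, 3′ site: tttctatgccttccccttAGgct
Mcm7 intron 14, 5′ site: tagGTgagg
Mcm7 intron 14, 3′ site: tttccatccttgtcttttAGgac

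The deposited strength score of the intron 12 sites was 8.24 at the 5′ and 9.72 at the 3′ end, beside medians of 8.78 and 8.70 over all 6537 introns. The sites of introns 13 and 14 scored 10.1 and 7.65 at the 5′ end and 10.51 and 12.41 at the 3′ end. Intron 1 had a 5′ score of 5.73, lower than which lay 10.5% of introns.

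Mcm7, the best covered of the helicase genes, was among the least spliced of the genes with enough reads. In the uninduced pool its 14 introns had a median coSE of 0.585, with a lowest value of 0.156 and a highest of 0.909, and 5.95% of 1312 genes had a lower median. After induction the median over 12 introns was 0.805, and 17.9% of 831 genes were lower. The splicing was not even along the gene. Introns 1 to 11 were spliced in 268 of 426 uninduced (0.629) and 216 of 268 induced observations (0.806). Introns 12 to 14 were spliced in 14 of 82 (0.171) and 13 of 28 (0.464). The 2 blocks were drawn after the values were seen. In the induced pool intron 12 gave 7 of 22 spliced, and introns 13 and 14 gave 3 of 3 each. The mix of introns differs between the pools, so 0.171 and 0.464 are no comparison of them.

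Intron 12, at chr5:138166079-138166682 and 604 bases long, was spliced in 7 of 45 uninduced reads (coSE 0.156, interval 0.0775 to 0.288). The other introns of the gene together stood at 0.594. In the induced pool it was spliced in 7 of 22 reads (0.318, interval 0.164 to 0.527), with the others at 0.806. Each intron was compared with an average other intron of its own gene by a two-sided Fisher's exact test, with Benjamini-Hochberg adjustment over all introns of the pool. A read can cover several introns, so the 2 sides of this test share reads and are not independent. The p-values do not account for this. Before induction intron 12 was lower (exact p = 4.83e-05, adjusted p = 0.00474) and after it the threshold of 0.05 was missed (exact p = 0.00121, adjusted p = 0.0566). It was the 1 lower call among 52 introns of the 9 genes, or where 1.60% of 8819 introns were called lower. Against its neighbours alone the call turned in each pool: the adjusted exact p was 0.532 before induction, against introns 11 and 13, and 0.0413 after it, against intron 11, since intron 13 had under 10 reads. The induced intron 12 also passed with at least 20 reads (adjusted exact p = 0.0241) and with the other introns summed (adjusted exact p = 1.59e-04).

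The next introns downstream had few reads. Intron 13 was spliced in 3 of 17 uninduced reads (0.176, adjusted exact p = 0.218) and in 3 of 3 induced reads, which is too few for a level. Intron 14 was spliced in 4 of 20 uninduced reads (0.200, adjusted exact p = 0.258) and again 3 of 3 induced reads. Introns 13 and 14 did not pass against an average other intron. With the other introns summed, which counts a read once for each intron it covers, both passed before induction (adjusted exact p = 0.0329 and 0.0330); 6.79% of all introns passed that way. Introns 8 to 13 are each present in 1 of 2 annotated transcripts that span them and intron 14 in 2 of 3. The annotated transcript without them is protein coding, and its part in the unspliced reads was not tested. Over the genome, 185 listed introns hold a microRNA hairpin. The 27 of them with enough uninduced reads, Mcm7 intron 13 among them, had a median coSE of 0.849 and 4 were under 0.5. The 20 with enough induced reads had a median of 0.875 with 1 under 0.5. Over all introns with enough reads the medians were 0.933 and 0.947, with 7.26% and 6.60% under 0.5.

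Intron 1, at chr5:138170397-138171725 and the longest of Mcm7 at 1329 bases, stood at the other end. It was spliced in 30 of 33 uninduced reads (0.909, interval 0.764 to 0.969), against 0.531 over the other introns (adjusted exact p = 0.0300 by Fisher's test). This was the 1 higher call among the 52 introns, where 0.510% of all introns were called higher. The call depended on the 3′ end of the gene: with introns 12 to 14 left out, a comparison chosen after the values were seen, the other introns stood at 0.606 and the adjusted exact p was 0.112. Against its 1 neighbour, intron 2, the adjusted exact p was 0.592. In the induced pool it was spliced in 22 of 22 reads (adjusted exact p = 0.406, and 0.0495 with the other introns summed). By the main test no member intron passed in the induced pool, of 36 tested, where 1.57% of 5524 introns were called lower and 0.489% higher. Mcm7 introns 1 and 12 and Rrm1 intron 14 had an unadjusted exact p under 0.05 there.

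**Figure D1:**
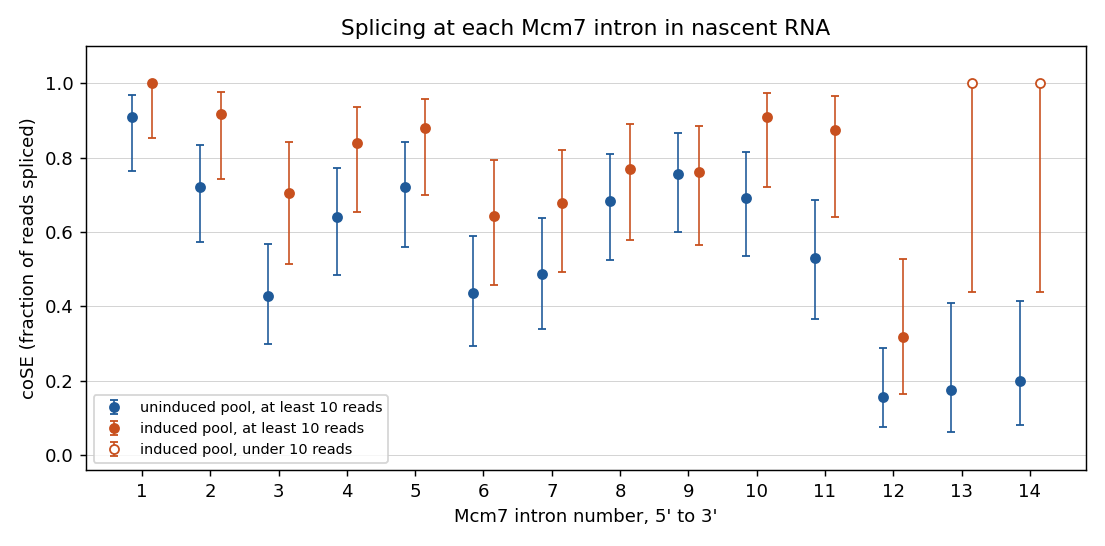
coSE (fraction of reads spliced, vertical axis) at each of the 14 Mcm7 introns in 5′ to 3′ order, with 95% Wilson intervals of 1 pool each (blue uninduced, orange induced; open circles under 10 reads). Uninduced introns 12, 13 and 14 lie at 0.156, 0.176 and 0.200, and the induced point lies above the uninduced one at all 14 introns, with 3 induced reads each at introns 13 and 14.

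Between the pools, coSE of Mcm7 was higher in the induced pool at 12 of 12 introns tested, by 0.00324 to 0.346 and with a median of 0.194. The median over all 4403 introns tested was 0. Intron 11 went from 18 of 34 reads spliced (0.529) to 14 of 16 (0.875), and intron 3 from 21 of 49 (0.429) to 19 of 27 (0.704). Among introns with at least 10 reads in each pool these were the largest differences of the 9 genes, and neither passed Fisher's exact test, two-sided, between the 2 pools (intron 11, exact p = 0.0263 and adjusted p = 0.458; intron 3, exact p = 0.0307 and adjusted p = 0.506). Introns of a gene share reads, so the 12 values are not independent. When the counts were averaged per intron into 1 test per gene, chosen after the values were seen, Mcm7 went from 0.584 to 0.769 over the introns tested in both pools (exact p = 0.188, adjusted p = 1), with 1.05% of 1051 genes called and 0 of 4 member genes.

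Over the members, 0 of 28 introns (of Mcm5, Mcm7, Pcna and Rrm1) passed between the pools, where 1.61% of 4403 introns did. Of these 28, 2 had an unadjusted exact p under 0.05, beside 351 of the 4403. A chi-square test also passed 0 of 28, with 2 under 0.05, where 2.25% of all introns passed. coSE was higher in the induced pool at 18 of the 28, lower at 5 and equal at 5, with a median difference of 0.0463, beside 1879 higher, 1534 lower and 990 equal of the 4403. Of the 18 higher, 12 were the Mcm7 introns that share reads. Besides Mcm7, Pcna had 3 higher and 1 lower, Rrm1 3 higher, 3 lower and 5 equal, and Mcm5 1 lower.

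Mcm3 and Mcm5 had higher medians than Mcm7. That of Mcm3 was 0.882 over 14 uninduced introns, with 29.0% of 1312 genes lower and a median over genes of 0.946. Its introns ran from intron 5, spliced in 19 of 23 reads (0.826, interval 0.629 to 0.930), to intron 1, spliced in 30 of 30. No Mcm3 intron reached 10 reads in the induced pool. Its intron 14, named after the values were seen, was spliced in 10 of 12 uninduced and 0 of 5 induced reads. These 5 reads are under the minimum of 10 and too few for a level. With no minimum, 0 of 89 member introns passed between the pools. Of 3 transcripts annotated across intron 14 of Mcm3, only 1 has it, and the part of the others in these reads was not tested. Mcm5 had a median of 1 over 5 uninduced introns, with 67.1% of genes lower. The exception was intron 1, a 78-base intron in the 5′ UTR at chr8:75109622-75109699, spliced in 12 of 19 reads (0.632, interval 0.410 to 0.809). It passed as lower with the other introns summed (adjusted exact p = 0.00280) and not with their average. After induction it was spliced in 5 of 7. Mcm5 intron 2 was spliced in 17 of 17 uninduced reads and intron 3, only 83 bases long, in 15 of 15. Intron 4, the 1 intron with enough reads in both pools, was spliced in 16 of 17 and 10 of 11 reads. At 1 to 9 reads per intron, reads added over all introns gave 58 of 67 spliced for Mcm2, 58 of 80 for Mcm4 and 54 of 63 for Mcm6 in the uninduced pool. In the induced pool these were 8 of 13 for Mcm2 and 5 of 7 for Mcm6, and Mcm4 had no read.

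Pcna was spliced at low levels along its whole length. The 5 uninduced introns lay between 0.476 and 0.722, with a median of 0.533, and 4.95% of 1312 genes had a lower median. Intron 1 was spliced in 13 of 18 uninduced and 12 of 16 induced reads. Intron 2 was spliced in 11 of 20 and 11 of 15 reads, the largest difference among its introns with at least 10 reads in each pool (exact p = 0.312, adjusted p = 1). Intron 3, the lowest in the uninduced pool, was spliced in 10 of 21 reads (interval 0.283 to 0.676) and in 7 of 13 induced reads. Intron 4 was spliced in 10 of 19 and 5 of 10 reads. Intron 5 was spliced in 8 of 15 and 2 of 6. The intervals of all 5 introns overlapped in each pool, so an order among them could not be read at this depth. In the induced pool the median of the 4 introns with enough reads was 0.636, with 6.14% of 831 genes lower.

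The splicing of the ribonucleotide reductase subunits is given side by side, with no test between the genes. Rrm1 had a median coSE of 0.957 over 14 uninduced introns and of 1 over 11 induced introns, 8 of them at 1. Intron 3 was spliced in 28 of 28 and 24 of 24 reads and intron 2 in 32 of 33 and 25 of 25. Intron 5 gave the smallest p between the pools, with 20 of 22 and 21 of 21 reads spliced (exact p = 0.488, adjusted p = 1). The lowest was intron 14, spliced in 9 of 13 and 7 of 11 reads (0.692 and 0.636), in the same place in both pools. It did not pass against the other introns (adjusted exact p = 0.574 and 0.242), except in the induced pool with the other introns summed (adjusted exact p = 0.00678). With that setting Rrm1 intron 10, spliced in 16 of 22 uninduced reads, also passed as lower (adjusted exact p = 0.0294). Rrm2 had enough reads only in the induced pool, with a median of 0.833 over 9 introns. Its intron 2 was spliced in 11 of 12 reads and its last, intron 9, in 7 of 11 (0.636, interval 0.354 to 0.848). In the uninduced pool each Rrm2 intron had 5 to 8 reads.

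**Figure D2:**
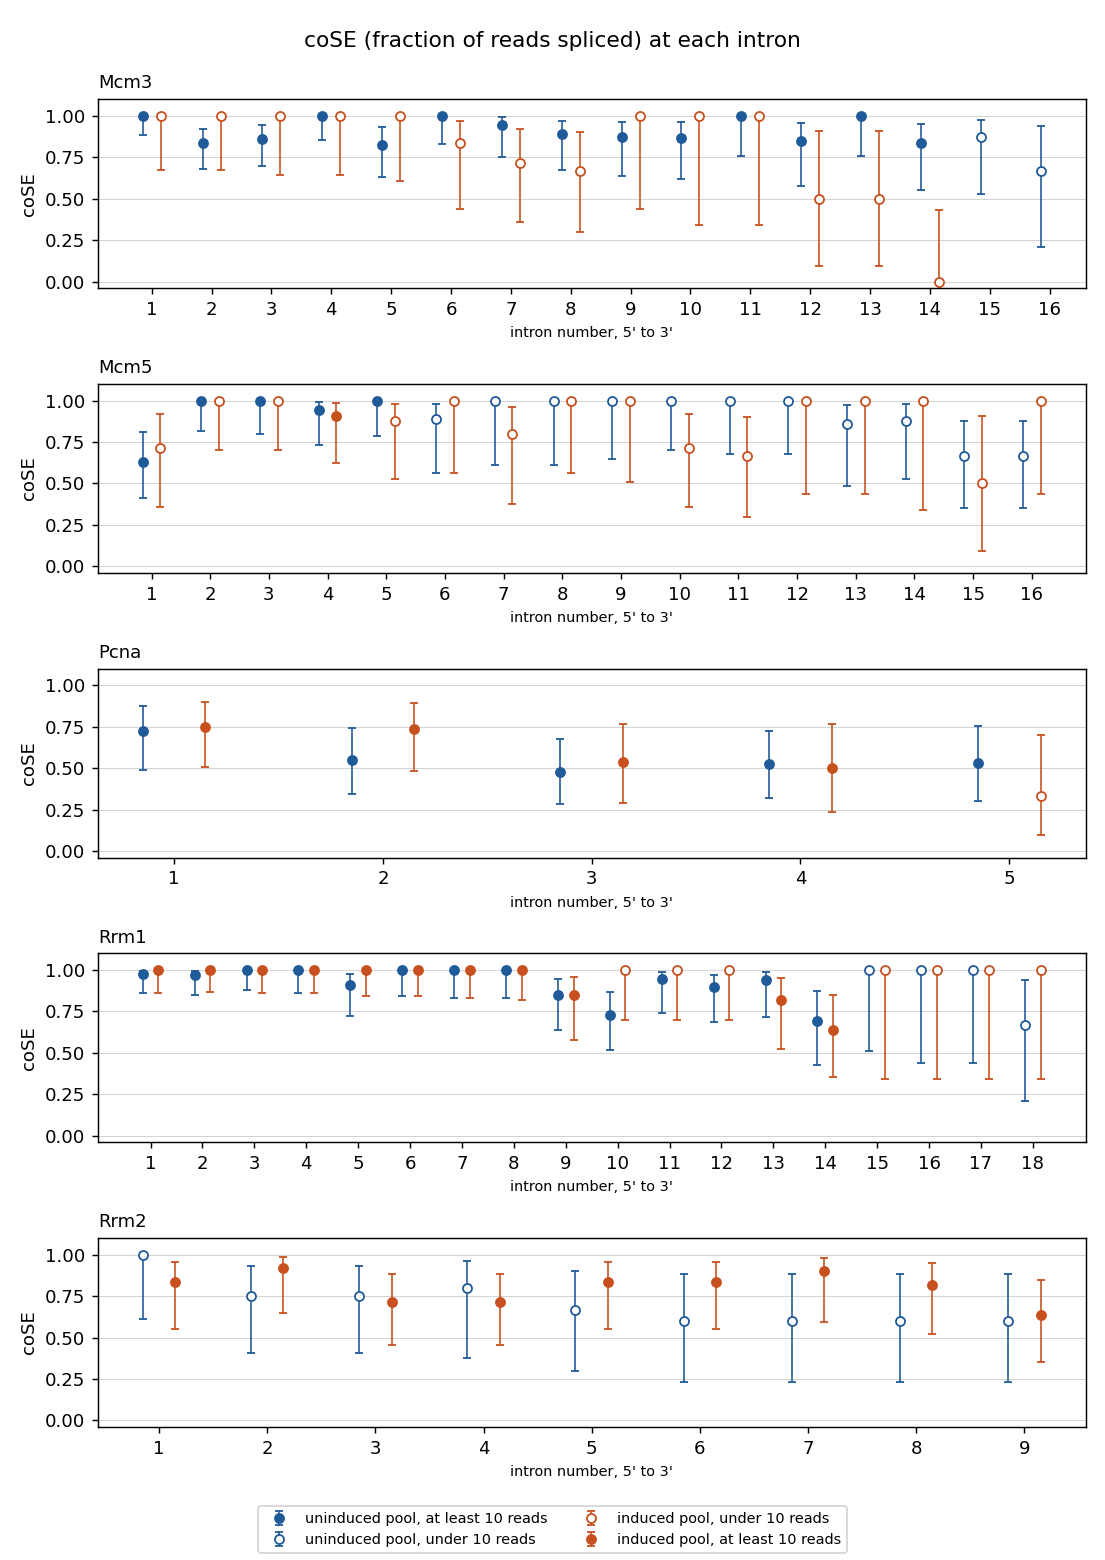
coSE (vertical axis, fraction of reads spliced) at each intron of Mcm3, Mcm5, Pcna, Rrm1 and Rrm2, numbered 5′ to 3′, with 95% Wilson intervals of 1 pool each (blue uninduced, orange induced; open circles under 10 reads). Uninduced Pcna introns lie between 0.476 and 0.722, while 8 of 11 induced Rrm1 introns with enough reads lie at 1.

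Rrm1 intron 7, 3432 bases long at chr7:102451064-102454495, begins with GC in place of the usual GT and was spliced in 19 of 19 reads in both pools. It and the introns below were chosen for their scores after the values were seen. Its 5′ score of 0.42 was undercut by 0.918% of introns. Introns that begin with GC made up 43 of 6537 (0.658%), with median coSE values of 0.947 before and 0.927 after induction, beside 0.939 and 0.947 for GT. Scores were given for 56 of the 121 member introns, and for none of Mcm2, Mcm4 and Mcm6. Among these 56 the weakest 3′ sites were those of Rrm1 intron 13, Mcm5 intron 2 and Mcm7 intron 7, with scores of 1.31, 1.50 and 2.02. Their coSE in the uninduced pool was 0.938, 1 and 0.487. Over all introns with a 3′ score under 3, the median coSE was 0.875 in each pool, and 18.4% of 158 uninduced and 15.4% of 117 induced introns lay under 0.5, beside 7.26% and 6.60% of all introns. The lines below show these sites and those of the least spliced intron of Mcm3, Mcm5, Pcna and Rrm1, with the ends of the intron in capitals; Rrm2 intron 9 is named only.
Rrm1 intron 7, 5′ site: tagGCacgt
Rrm1 intron 7, 3′ site: ttttttttttctcactgtAGctg
Rrm1 intron 13, 3′ site: ctaaaccttttggcacaaAGgca
Mcm5 intron 2, 3′ site: ccctttgttgaccactaaAGaga
Mcm7 intron 7, 3′ site: aagggaactcttgtgtccAGggc
Mcm3 intron 5, 5′ site: cagGTaaag
Mcm5 intron 1, 5′ site: gagGTgagg
Pcna intron 3, 5′ site: ccaGTgagt
Rrm1 intron 14, 5′ site: ggtGTaagt

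Over the member introns with at least 10 reads, the median coSE was 0.856 at 52 uninduced and 0.833 at 37 induced introns, beside 0.933 and 0.947 over all introns. The sets differ: the uninduced introns are of Mcm3, Mcm5, Mcm7, Pcna and Rrm1, and after induction Mcm3 (14 introns) is out and Rrm2 (9 introns) is in, so the 2 medians are no comparison of the pools. The order of the 2 pools turned with the setting: the medians were 0.850 and 0.917 with no minimum and 0.742 and 0.909 with at least 20 reads, and reads added together gave 0.747 and 0.826. Without Mcm7 the medians were 0.923 over 38 and 0.833 over 25 introns, again of different genes. All reads were spliced at 25% of the uninduced and 24.3% of the induced introns, beside 37.0% and 43.1% of all introns. Longer introns had higher coSE: Spearman's rho between length and coSE was 0.563 over 52 uninduced and 0.456 over 37 induced introns, beside 0.371 and 0.383 over all introns. With at least 20 reads it was 0.737 over 28 and 0.688 over 17. Within Mcm7 it was -0.04 over 14 and 0.06 over 12. Introns nearer the 3′ end had lower coSE: rho with relative position was -0.37 and -0.51, beside -0.15 and -0.20 over all introns, and -0.57 and -0.43 within Mcm7. With at least 20 reads the rho with position over the 9 genes was -0.63 and -0.68. Lengths differ between the genes, with medians of 183 bases in Mcm7, 252 in Pcna and 1068.5 in Rrm1, and introns of a gene share reads, so these are descriptions.

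**Figure D3:**
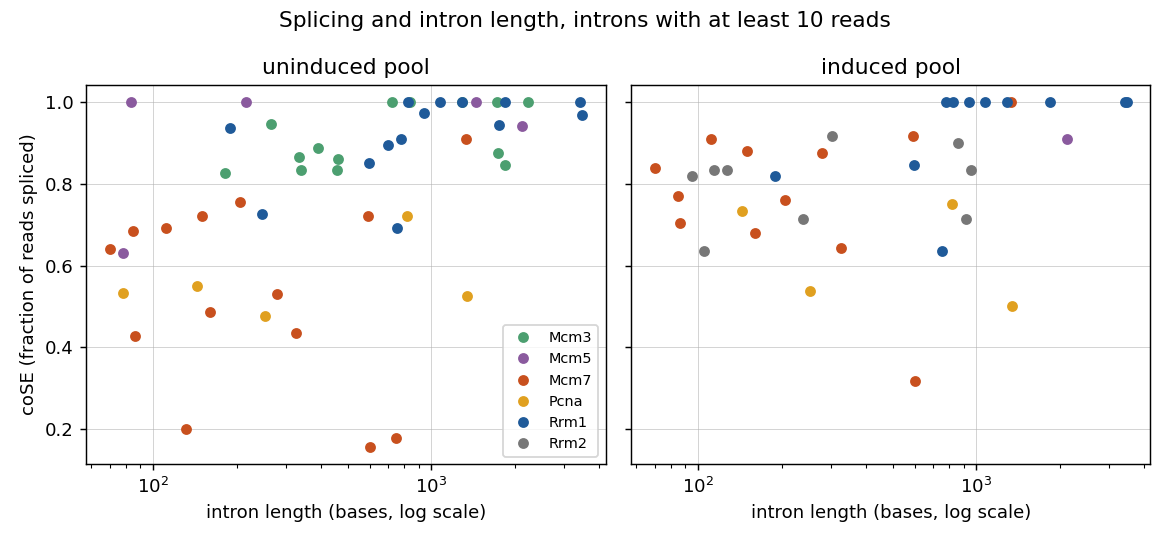
coSE (vertical axis) against intron length in bases (horizontal, log scale) for the 52 uninduced (left) and 37 induced (right) introns with at least 10 reads, 1 point per intron, coloured by gene. Most Rrm1 introns lie at the upper right of each panel, Mcm3 introns appear only in the uninduced panel, and the uninduced Mcm7 introns lie at or below 0.757 except the longest, at 0.909.

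Intermediates are taken here to be RNAs between the steps of splicing, with the upstream exon cut from its intron and still unjoined; how they were recognised is not given in the sources used here. NIC is their share of intermediates plus spliced reads. At the listed member introns 45 of 774 reads were intermediates before induction (5.81%) and 21 of 379 after it (5.54%), beside 2.71% and 4.35% over all introns. At least 1 was found at 28 of 50 uninduced introns (56%) and 14 of 27 induced introns (51.9%), beside 36.2% and 37.8%. Mcm7 gave 16 of 241 and 13 of 185 reads, and Rrm1 16 of 268 and 7 of 140. Pcna gave 4 of 35, Mcm3 8 of 175 and Mcm5 1 of 55 in the uninduced pool, and Rrm2 1 of 54 in the induced pool.

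The Mcm7 introns with low coSE also held intermediates. Intron 12 had 3 of 10 uninduced reads (0.300, interval 0.108 to 0.603) and 2 of 6 induced reads. Intron 14 had 2 of 3 uninduced reads, the highest fraction among the listed member introns, with an interval of 0.208 to 0.939. Since spliced reads are in the denominator of NIC and the numerator of coSE, a low coSE raises NIC at an equal number of intermediates. Intron 6 had 2 of 14 and 4 of 16, intron 4 had 3 of 27 and 2 of 19, intron 3 had 2 of 22 and 0 of 15, and intron 11 had 2 of 18 and 1 of 13. In Rrm1, intron 3 had 3 of 28 uninduced reads, and introns 2, 4, 11 and 14 had 2 each, of 30, 23, 16 and 10. Its introns 7 and 9 had 2 of 16 and 2 of 12 induced reads. Mcm3 introns 3 and 5 had 2 of 18 and 2 of 15, and Pcna intron 2 had 2 of 9. By Fisher's exact test 0 of 21 introns passed between the pools, and 0 had an unadjusted exact p under 0.05, where 0.0981% of 2039 introns passed. The same 0 of 21 passed by a chi-square test.

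Reads per intron, counted spliced or not, were used for the amount of nascent RNA of each gene. In bulk samples fewer cells of a type and less RNA per cell cannot be told apart. Rrm2 had 5.89 reads per intron before and 12 after induction, with a range over its 9 introns, which share reads, of 5 to 8 and 10 to 14. Folds are of shares, a gene's mean reads per intron over the sum of these means over all genes (54456.9 and 33065.3). For Rrm2 this was 3.36-fold higher, which did not pass Fisher's exact test (exact p = 0.0146, adjusted p = 0.169). It was the 1 of 9 members with an unadjusted p under 0.05, beside 597 of 4407 genes. Rrm1, its partner, went from 18 to 13.6 reads per intron, a fold of shares of 1.25 (adjusted exact p = 0.847). Pcna went from 18.6 to 12 and Mcm7 from 36.3 to 21.1, with folds of 1.06 and 0.960 (adjusted exact p = 1 for each). With unspliced reads only these folds were 0.740 and 0.391, and with spliced reads only 1.22 and 1.39. None of them passed.

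None of the other helicase subunits passed by the main measure. Mcm3 went from 18 to 4.44 reads per intron, a fold of 0.406 (adjusted exact p = 0.426). Counted at its deepest intron it went from 36 to 8 reads, a fold of 0.335 that passed (adjusted exact p = 0.0451), where 6.88% of 6060 genes passed in either direction. Mcm5 went from 10.5 to 5.56, a fold of 0.872 (adjusted exact p = 1). Mcm2 went from 4.79 to 0.929 reads per intron and Mcm6 from 4.50 to 0.500 (adjusted exact p = 0.789 and 0.684). Mcm4 had 5.33 and is listed at 0 in the induced pool at all 15 introns. An equal share would have given 3.24 reads, so with a floor of 3 counts per intron Mcm4 was at least 1.08-fold lower, which did not pass (adjusted exact p = 0.573). By the main measure 0 of 9 genes passed in either direction, where 2.95% of 4407 genes were called lower and 2.93% higher.

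**Figure D4:**
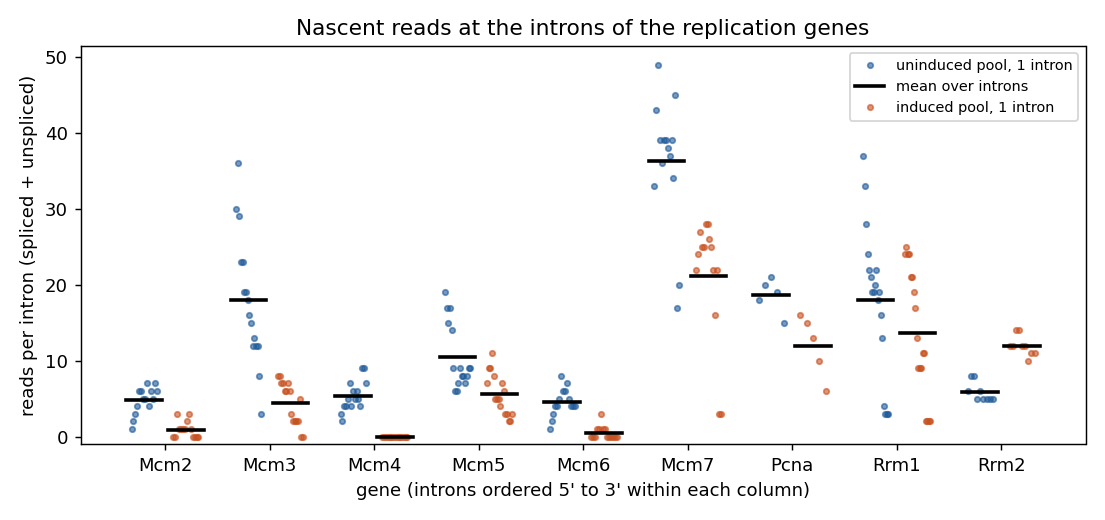
Reads per intron (spliced plus unspliced, vertical axis) for the 9 genes, 1 point per intron in 5′ to 3′ order within each column, blue for the uninduced and orange for the induced pool, with a black bar at the mean. Mcm4 lies at 0 in the induced pool, and the Rrm2 points, introns that share reads, lie at 5 to 8 in the uninduced and 10 to 14 in the induced pool.

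Coverage along the genes ran in both directions. In the uninduced pool Mcm3 went from 30 reads at its first to 3 at its last intron and Rrm1 from 37 to 3, while Mcm2 went from 1 to 6 and Mcm4 from 3 to 7. Mcm7 went from 33 to 20 and Pcna from 18 to 15. In the induced pool Mcm7 went from 22 to 3, Pcna from 16 to 6, Rrm1 from 24 to 2, Mcm3 from 8 to 0 and Rrm2 from 12 to 11.

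Other replication genes from a list of 55, of which 51 were in the splicing table and which were fixed with these data known, were tested in the same way. Between the pools 0 of 40 introns in 11 genes passed by Fisher's exact test, where 1.61% of all introns did, and 3 had an unadjusted exact p under 0.05. Of 36 genes tested for reads per intron 0 passed, where 2.95% of all genes were called lower and 2.93% higher, with 3 at an unadjusted exact p under 0.05, beside 597 of 4407 genes, and the median fold was 0.740, beside 0.872 over the 9 genes and 0.895 over all genes. Against its own gene, 2 of 109 uninduced introns were lower, a share near the 1.60% of all introns: intron 7 of Cdc7, the kinase that activates the MCM helicase (7 of 15 reads, adjusted exact p = 0.0389), and intron 6 of Rfc3, a subunit of the clamp loader that places PCNA on DNA (1 of 11, adjusted exact p = 0.0218). After induction 1 of 38 was, where 1.57% of all introns were: intron 3 of the topoisomerase gene Top2a (37 of 64, adjusted exact p = 0.00129).

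In the promoter windows around each gene's start site (300 bases, RefSeq on GRCm38.p6), the letters TTCCCGC or TTGGCGC, cores of E2F-type sites, were found on either strand in 6 of 9 member windows, beside 6.81% of 32851. The 6 belong to Mcm3, Mcm5, Mcm6, Rrm1 and Mcm7, which has 2 windows, and 8 member genes were matched. CCAAT was found in 9 of 9, beside 37.4%.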

How the data were processed

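Long-read sequencing of chromatin RNA gave 2 tables in which each intron has a line for either condition. The deposited counts are spliced and unspliced reads in the first table, and spliced reads and intermediates in the second. The second also holds NIC as a fraction made by the authors, a deposited percent of GC, the intron length, and splice site strengths as a deposited score. minimap2, SAMtools, bedtools, cutadapt and Bowtie and the build mm10 are named in the submitters' processing notes, with no role. The filters, the pooling of replicates and the way unspliced reads were merged are not given in the sources used here. The libraries were amplified by PCR, and tests, floors and intervals therefore cover counting error alone. The 2 condition lines were assigned to the uninduced and induced long-read groups, and 12 other samples were not analysed here.

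coSE was computed as spliced over all reads. Introns were matched by transcript and position to GENCODE mouse release 21 on GRCm38, 1-based (2 added to the start, 1 taken from the end). Of 68794 introns, 26 were not on annotated introns. Fisher's exact tests (scipy 1.17.1, pandas 2.3.3, Python 3.11.15) were two-sided with Benjamini-Hochberg adjustment over the whole table, a threshold of 0.05 and at least 10 reads per intron, in each pool where pools were compared. For an intron against its gene, the counts of the other introns were summed, divided by their number and rounded, in genes with at least 3 introns at the minimum. Reads per gene were the rounded mean over introns, tested from a mean of 3 reads. The tests were tested on simulated data; there, unchanged introns of a gene that held a changed intron could also be called against their gene.

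Named introns were, per gene and pool, the least and most spliced, those past a threshold, the one with the smallest p between the pools, and those with at least 2 intermediates; others are said to be chosen later. The genes and lists were chosen with earlier results of these data known. Alternatives were other coverage minimums, a chi-square test, thinning, introns of every spanning transcript, neighbouring or summed introns and other measures of reads per gene.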

Additional observations from a re-analysis of the deposited data

How the results depend on the processing

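Introns past the threshold between the pools numbered 71, 36 with no coverage minimum and 31 among introns in every spanning transcript. With the other introns of the gene summed, 599 uninduced and 364 induced introns passed against their gene (6.79% and 6.59%), beside 6 of 52 and 3 of 36 in the 9 genes. Among introns in every spanning transcript these were 25 and 45 (0.460% and 1.33%), with 0 of 36 uninduced introns in the 9 genes, but this subset leaves out Mcm7 introns 1 and 12. Against neighbouring introns only, 0 uninduced and 1 induced intron of the 9 genes passed, beside 2.53% and 2.26% of all introns, and with at least 20 reads 1 induced intron did, beside 6.27%; the induced intron was Mcm7 intron 12 in both settings. Without Mcm7 introns 12 to 14, 0 of 49 uninduced introns of the 9 genes passed, beside 2.05% of all introns. The adjusted exact p of Mcm7 intron 12 ran from 1.40e-06 to 0.532 uninduced and from 1.59e-04 to 0.0566 induced, and that of intron 1 from 5.64e-04 to 0.592 and from 0.0495 to 1. Called genes by reads numbered 259 of 4407 by the main measure (5.88%). At the deepest intron they numbered 417 of 6060 (6.88%), where 1 of 9 members (Mcm3) was lower. With unspliced reads only they numbered 32 of 736 (4.35%), with 0 of 2 members lower. The fold of Mcm7 turned to 1.07 with the median per intron and 1.39 with spliced reads only and fell to 0.391 with unspliced reads only, and that of Pcna to 0.988 without globin and ribosomal protein genes and 0.740 with unspliced reads only; none of these passed. The median coSE without Mcm7 was 0.923 uninduced and 0.833 induced. The median over the member introns, lower after induction as reported but over different genes in the 2 pools, was higher after it with no minimum (0.850 and 0.917) and with at least 20 reads (0.742 and 0.909). The share spliced with reads added together, which is not a median, was also higher after it (0.747 and 0.826). The cause of these changes was not tested, beyond the introns or genes each setting removes. At 10 reads, a count of 0 allows a share of up to 30%. No paired analysis was possible because the tables give 1 pooled line per intron and condition, and no replicate could be left out for the same reason.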
